A study of Macaca mulatta with 22 samples.

Results

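KRT8, KRT18 and KRT19, the simple epithelial keratins, were followed through the ovulatory interval in single follicles of rhesus macaques. A probe set is a group of short array probes that together measure 1 transcript, and every probe set whose only platform gene symbol was 1 of these 3 was taken. This gave 3 genes of the 14132 measured under a single symbol, and 6 of the 52766 probe sets tested, with 1 for KRT8, 2 for KRT18 and 3 for KRT19. RNA of 22 dominant follicles was hybridised to Affymetrix rhesus macaque arrays, 1 follicle per array. All females had received the GnRH antagonist Acyline with recombinant human FSH and LH during a natural menstrual cycle. The groups were follicles taken at 0 h without hCG (n = 6), follicles at 12 h (n = 4) and 24 h (n = 4) after recombinant hCG, the ovulatory stimulus, unruptured follicles at 36 h (n = 4) and ruptured follicles at 36 h (n = 4). Ages of the animals are not given in the labels. The labels do not say for each array that the follicles came from separate animals. The p-values therefore measure only how far these follicles differed.

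Keratins form filaments only as pairs of a type II and a type I protein. KRT8 is the type II partner in simple, one-layered epithelia, and KRT18 and KRT19 are its usual type I partners there. In the ovary these keratins are known as proteins of the surface epithelium, and in several mammals also of granulosa cells, the epithelial cells that line the follicle. Each array here measured a whole follicle, in which fewer cells of a type and less RNA per cell cannot be told apart.

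KRT8 and the brighter of the KRT18 probe sets changed over the 5 groups, and KRT19 did not pass the test. KRT8 was lower at 24 h than at 12 h, while the brighter KRT18 probe set was higher at 24 h than at 12 h. The brighter KRT18 set was lower in ruptured than in unruptured follicles at 36 h. KRT8 had a higher mean in ruptured follicles there but missed the threshold. A probe set shared by KRT18 and other entries, described below, was lower at 24 h than at 12 h and higher in ruptured follicles. These directions were the reverse of the brighter KRT18 set, and only the difference at rupture was called. Values are log2 of the deposited intensity, so a difference of 1 is a doubling, and a change was called at a limma p-value under 0.05 after Benjamini-Hochberg adjustment over all 52766 probe sets. In the F test over the 5 groups, 2 of the 6 keratin probe sets were called, against 20.1% of all probe sets. Levels of different probe sets cannot be set against each other, so only changes are compared between genes.

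**Figure D1:**
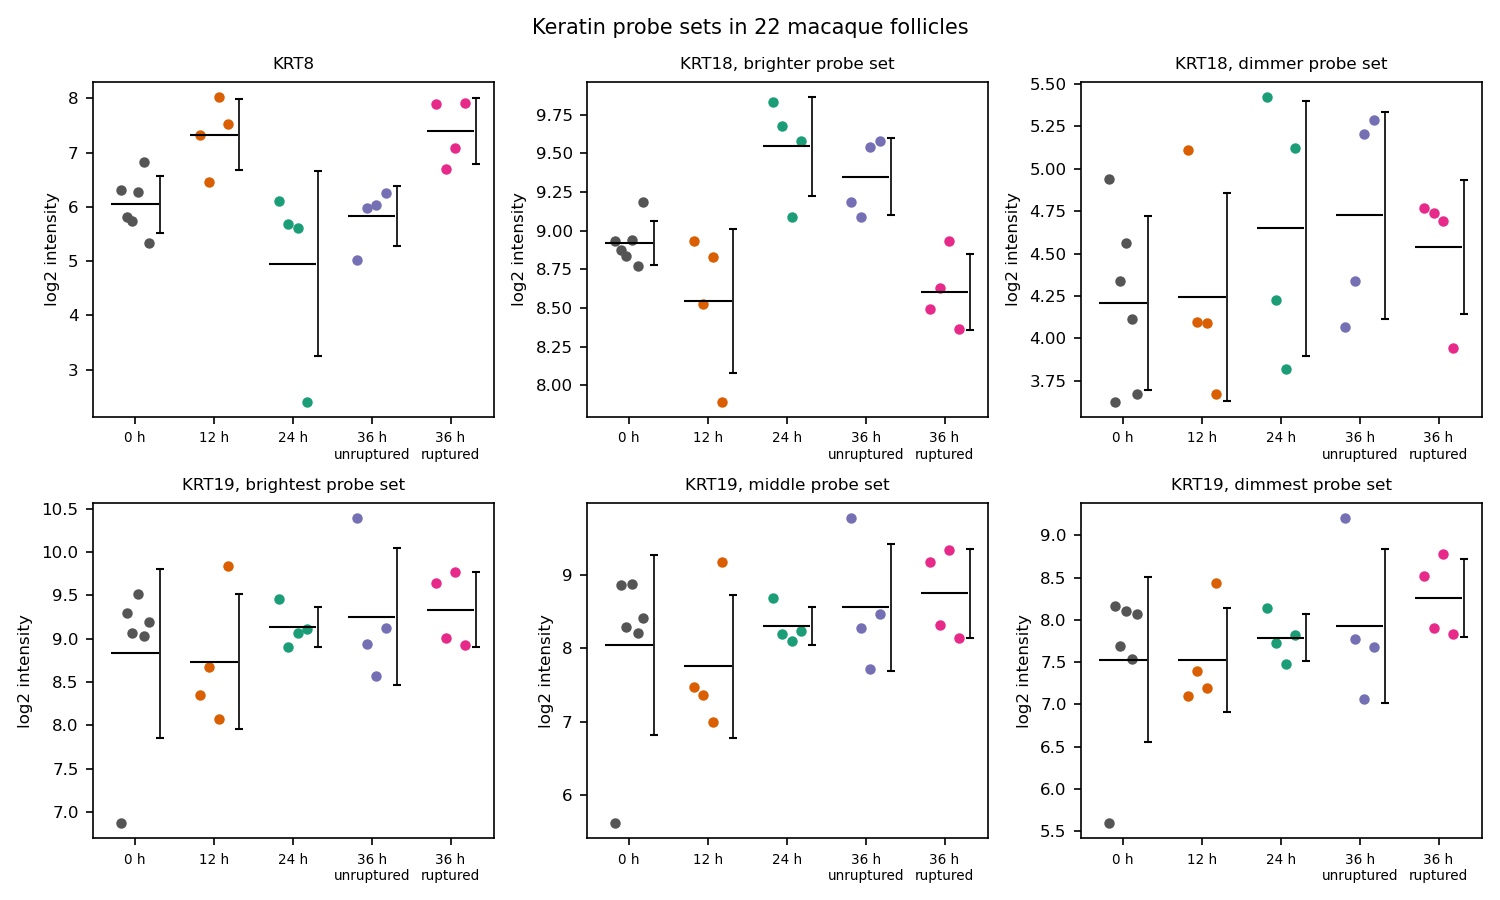
Log2 intensity of the 6 keratin probe sets (1 panel each, with its own vertical scale) in every follicle, by group. Points are arrays, horizontal lines are group means and bars are ± 1 SD (n = 6 at 0 h, n = 4 in the other groups). KRT8 points at 12 h and in ruptured follicles sit above those at 24 h, and the brighter KRT18 set shows the opposite order. In KRT19 the groups overlap throughout.

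The annotation of the probe sets differs between the genes. The KRT8 probe set (gene ID 700449) and the 3 KRT19 probe sets (gene ID 707129) carry the IDs that RefSeq gives these genes in the macaque. Both KRT18 probe sets (MmugDNA.12950.1.S1_at, the brighter, and MmugDNA.7922.1.S1_at) carry gene ID 719942, which is not in the RefSeq table used here, where KRT18 has ID 700569. That ID occurs on the array in a single probe set (MmuSTS.4630.1.S1_at), which the platform assigns to 11 gene IDs. RefSeq has 10 of them, KRT18 and 9 pseudogenes. The remaining ID, which the platform also names KRT18, has no RefSeq entry. KRT8 likewise shares a further probe set (MmugDNA.6510.1.S1_s_at) with 8 entries that RefSeq lists as pseudogenes. These 2 shared probe sets are not counted as members, and their values are given separately below because they bear on which transcript the KRT18 sets measure. Of 24956 probe sets with 1 symbol on the array, 340 had a gene ID without a RefSeq entry.

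KRT8, the type II keratin, had the widest swings of the 3 genes. At 0 h the 6 follicles had log2 intensities of 6.30, 5.82, 5.73, 6.27, 6.83 and 5.34. At 12 h they had 7.33, 6.45, 8.03 and 7.52, and at 24 h 6.11, 5.68, 5.60 and 2.41. The 24 h values all lay below the 12 h values, and replicate 4 at 24 h stood far below the other follicles. Ruptured follicles at 36 h had 7.89, 6.69, 7.09 and 7.91, against 5.02, 5.98, 6.04 and 6.26 in unruptured ones. All ruptured follicles thus lay above all unruptured ones. How many of all probe sets had groups apart in this way was not computed, here or for the separations given for other probe sets. Mean KRT8 was 6.05 ± 0.52 at 0 h, 7.33 ± 0.66 at 12 h and 4.95 ± 1.71 at 24 h (SD). At 36 h it was 7.40 ± 0.60 after rupture and 5.83 ± 0.55 before it. In order of level, the groups ran 24 h, unruptured 36 h, 0 h, 12 h and ruptured 36 h, and no neighbours in this order differed by the test.

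KRT8 fell at 24 h against 12 h, by 2.38 ± 0.61 on the log2 scale (SE), which is 5.21-fold lower (adjusted p = 0.0216, F test adjusted p = 0.0195). This was the only 1 of the 8 comparisons in which KRT8 was called. Without replicate 4 at 24 h the difference was -1.54 (adjusted p = 0.0311). Leaving out 12 h replicate 1, 3 or 4 ended the call, with adjusted p of 0.0527, 0.0596 and 0.0571. A ratio of 3′ to 5′ signal of the actin and GAPDH control probe sets, a sign of RNA quality, differed in mean between these groups. It averaged 0.599 ± 0.047 at 24 h and 0.702 ± 0.102 at 12 h (log2, SD, n = 4 each). Replicate 3 at 12 h, which had the highest KRT8 of its group (8.03), stood at 0.853. The other 12 h arrays lay between 0.626 and 0.666. With that ratio as a covariate the KRT8 difference was -2.06 and no longer called (adjusted p = 0.0954), and in a fit of the 2 groups alone it was -2.38 with adjusted p = 0.203.

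The other KRT8 differences missed the threshold, and 3 of them were above 1 on the log2 scale in the positive direction. KRT8 was 7.33 at 12 h and 6.05 at 0 h, a difference of 1.28 ± 0.55 (adjusted p = 0.173). Ruptured follicles exceeded unruptured ones by 1.57 ± 0.61 (adjusted p = 0.117) and 0 h follicles by 1.35 ± 0.55 (adjusted p = 0.114). These 3 tests shared a spread that included the 24 h follicle at 2.41. Without that follicle all 3 were called, with adjusted p of 0.0247 for 12 h against 0 h, 0.0130 for ruptured against unruptured and 0.0116 for ruptured against 0 h. They were also called when 16 was added to each intensity before the logarithm, with differences of 1.11, 1.34 and 1.16. The remaining KRT8 differences were not called: -1.10 ± 0.55 for 24 h against 0 h, 0.88 ± 0.61 for unruptured 36 h against 24 h, -0.22 ± 0.55 for unruptured 36 h against 0 h and 0.06 ± 0.61 for ruptured 36 h against 12 h.

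KRT18, a type I partner of KRT8, is described by its brighter probe set, whose gene ID is not in RefSeq. Values given below for KRT18 alone are those of this set. The shared set with the RefSeq ID of KRT18 had the opposite directions at 24 h against 12 h and at rupture. Which of them measures KRT18 was not tested. The 0 h follicles had log2 intensities of 8.93, 8.87, 8.84, 8.94, 8.77 and 9.18, a narrow range. At 12 h the values were 8.93, 8.53, 8.83 and 7.90, and at 24 h they were 9.83, 9.68, 9.09 and 9.58. Every 24 h follicle exceeded every 12 h follicle. Ruptured follicles at 36 h had 8.49, 8.63, 8.93 and 8.37, against 9.19, 9.09, 9.54 and 9.58 in unruptured ones. All ruptured follicles lay below all unruptured ones. Mean KRT18 was 8.92 ± 0.14 at 0 h, 8.55 ± 0.47 at 12 h and 9.54 ± 0.32 at 24 h (SD). At 36 h it was 8.60 ± 0.24 after rupture and 9.35 ± 0.25 before it. The order of level was 12 h, ruptured 36 h, 0 h, unruptured 36 h and 24 h, nearly the reverse of that of KRT8, and again no neighbours in the order differed by the test.

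The brighter KRT18 set rose at 24 h against 12 h by 1.00 ± 0.21, a 2.00-fold difference (adjusted p = 0.00696). It was lower in ruptured than in unruptured follicles at 36 h, with a difference of -0.75 ± 0.21, or 1.68-fold (adjusted p = 0.0291). Its F test gave an adjusted p of 0.00411. In fits of only the 2 groups concerned, the adjusted p became 0.136 for 24 h against 12 h and 0.0944 for ruptured against unruptured. The difference at rupture also lost its call without unruptured replicate 3 or 4 or ruptured replicate 5, 6 or 8, with values between -0.75 and -0.67 in those fits. With the replicate number as a block it was -0.87 and not called (adjusted p = 0.462). KRT18 at 24 h exceeded that at 0 h by 0.62 ± 0.19 without being called (adjusted p = 0.0877). It was called without 12 h replicate 4 (0.62, adjusted p = 0.0378) or without 24 h replicate 3 (0.77, adjusted p = 0.0449), and also with 16 added (adjusted p = 0.0496). The other KRT18 differences were -0.38 ± 0.19 for 12 h against 0 h, -0.19 ± 0.21 for unruptured 36 h against 24 h, 0.43 ± 0.19 for unruptured 36 h against 0 h, -0.32 ± 0.19 for ruptured 36 h against 0 h and 0.06 ± 0.21 for ruptured 36 h against 12 h, none of them called.

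The dimmer KRT18 probe set ranged over 3.63 to 5.42 on the 22 arrays, around the median of all probe sets (4.63), and was called in no comparison (F test adjusted p = 0.707). No detection calls came with the data, so it cannot be said whether it was above background, and changes at this level are uncertain in size. Its differences had the sign of the brighter set at 24 h against 12 h (0.41 ± 0.40) and in ruptured against unruptured follicles (-0.19 ± 0.40). They had the opposite sign at 12 h against 0 h (0.03, against -0.38 in the brighter set), at unruptured 36 h against 24 h (0.08, against -0.19) and at ruptured 36 h against 0 h (0.33, against -0.32). With the mean of both KRT18 sets in place of the brighter one, the calls ended, with differences of 0.70 at 24 h against 12 h (adjusted p = 0.153) and -0.47 in ruptured against unruptured follicles (adjusted p = 0.353), and the F test over the 5 groups was not called either (adjusted p = 0.192).

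KRT19, the smallest keratin and the other type I partner of KRT8, varied more between follicles of a group than between groups. Its brightest probe set had log2 intensities of 6.87, 9.30, 9.07, 9.52, 9.04 and 9.19 at 0 h. At 12 h it had 8.36, 8.67, 8.08 and 9.84, and at 24 h 9.46, 8.91, 9.07 and 9.11. Replicate 1 at 0 h was the lowest of all 22 follicles. In ruptured follicles at 36 h the values were 9.64, 9.01, 9.77 and 8.93, and in unruptured ones 10.39, 8.94, 8.57 and 9.12. Every pair of groups overlapped. Mean KRT19 was 8.83 ± 0.97 at 0 h, 8.74 ± 0.78 at 12 h and 9.14 ± 0.23 at 24 h (SD). At 36 h it was 9.34 ± 0.43 after rupture and 9.26 ± 0.79 before it, and no 2 groups among the 8 comparisons differed by the test. The largest KRT19 differences of this probe set were 0.60 ± 0.50 for ruptured 36 h against 12 h (adjusted p = 0.651) and 0.51 ± 0.46 for ruptured 36 h against 0 h (adjusted p = 0.545).

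The 3 KRT19 probe sets moved together from follicle to follicle. Across the 22 arrays their pairwise Pearson r was 0.968 to 0.985, and 0.973 to 0.988 on deviations from the group means. They target 1 gene and were read from the same RNA, so they are not independent. Their F tests had adjusted p of 0.676, 0.702 and 0.792. Replicate 1 at 0 h was lowest in the other KRT19 probe sets too, at 5.62 and 5.60, against 7.54 to 8.88 in the other 0 h follicles. Without it, the 24 h minus 0 h difference of the brightest set was -0.08 in place of 0.31.

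**Figure D2:**
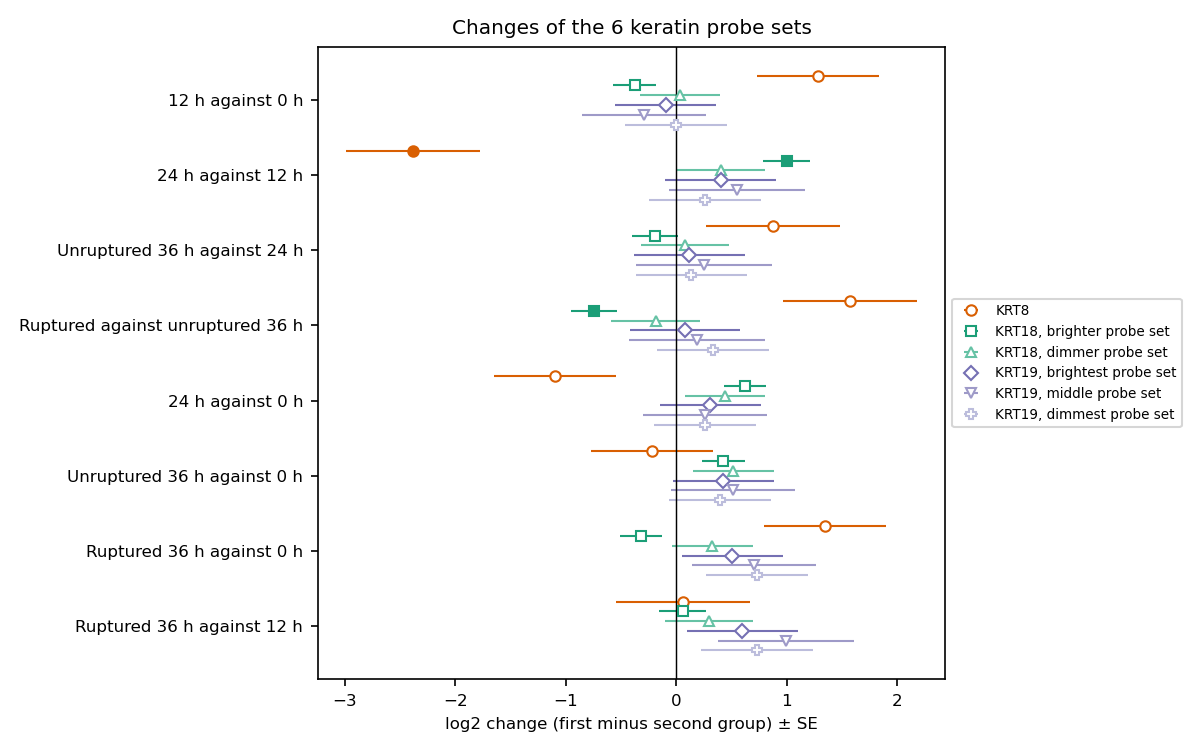
Log2 change ± SE of the 6 keratin probe sets in 8 comparisons, with the group named first minus the second. Filled symbols passed an adjusted p of 0.05 and open symbols did not. KRT8 and the brighter KRT18 set lie on opposite sides of 0 at 24 h against 12 h (-2.38 and 1.00) and in ruptured against unruptured follicles (1.57 and -0.75).

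Set against all probe sets, the keratins were called in few comparisons. All percentages here are shares called at the adjusted threshold. The share of all probe sets with an unadjusted p under 0.05 was not computed, so the unadjusted counts have no background to be read against. At 24 h against 12 h, 2 of the 6 were called, 1 higher and 1 lower, against 6.88% of all probe sets (3.67% higher and 3.2% lower). In ruptured against unruptured follicles 1 of 6 was called, lower, against 9.82% (4.83% higher and 4.99% lower), and 2 of 6 had an unadjusted p under 0.05. At 12 h against 0 h limma called 0 of 6, against 9.33% of all (4.28% higher and 5.05% lower), and 1 of 6 had an unadjusted p under 0.05 (KRT8). At 36 h unruptured against 24 h it called 0 of 6, with 0 at an unadjusted p under 0.05, and 0.00379% of all, these all lower (0.0% higher). Of the comparisons with 0 h, 24 h called 0 of 6 against 3.36%, unruptured 36 h 0 of 6 against 4.72% and ruptured 36 h 0 of 6 against 15.8%. In each of these 3, 1 of 6 had an unadjusted p under 0.05, which was the brighter KRT18 set in the first 2 comparisons and KRT8 in the last. At ruptured 36 h against 12 h, 0 of 6 were called, with 0 at an unadjusted p under 0.05, against 1.6% of all.

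Since filaments need both partners, the change of KRT8 was set against that of each type I gene within the same arrays. For KRT18 this used its member probe sets, with the brighter one given here. It was not done with the shared set, which went the other way. The KRT8 minus KRT18 difference averaged -2.87 ± 0.63 at 0 h, -1.21 ± 0.77 at 12 h and -4.59 ± 1.73 at 24 h (log2, SD). At 36 h it averaged -1.21 ± 0.79 after rupture and -3.52 ± 0.46 before it. Only its shifts between groups carry meaning, because the levels come from different probes. It shifted by 1.66 at 12 h against 0 h (p = 0.00952), by -3.38 at 24 h against 12 h (p = 0.0286) and by 2.32 in ruptured against unruptured follicles (p = 0.0286), in two-sided exact permutation tests over the arrays. Adjusted over the 12 tests of 3 gene pairs and 4 successive comparisons, each of these p-values became 0.0857, so none passed. With 4 arrays against 4, 0.0286 is the smallest p such a test can give, and 0.00476 with 4 against 6. A p of 0.0286 passes this adjustment only if most of the 12 tests have p-values about as small. That comparisons of 4 against 4 did not pass therefore says little. The KRT8 minus KRT19 difference shifted by -2.78 at 24 h against 12 h (p = 0.0286, adjusted p = 0.0857) and by 1.49 in ruptured against unruptured follicles (exact p = 0.0571, adjusted p = 0.137). Shifts between KRT18 and KRT19 lay between -0.83 and 0.60, and their exact permutation p-values, adjusted, were 0.294 or higher.

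**Figure D3:**
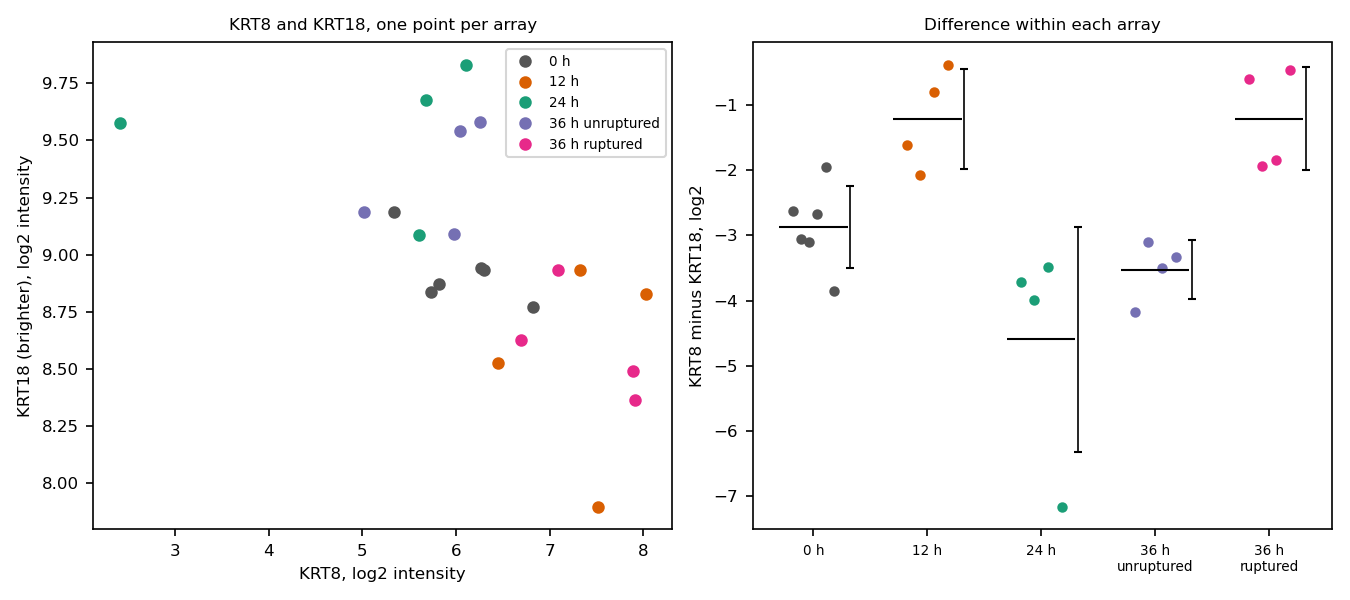
Left, log2 intensity of KRT8 against that of the brighter KRT18 probe set, 1 point per array, coloured by group. Right, KRT8 minus the brighter KRT18 set within each array, with group means as lines and ± 1 SD as bars (n = 6 at 0 h, n = 4 otherwise). The group means of the difference are -1.21 at 12 h and in ruptured follicles, and -2.87 to -4.59 in the other groups.

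Across the 22 arrays, KRT8 and the brighter KRT18 set had a Pearson r of -0.61 and a Spearman rho of -0.71. On deviations from the group means r was -0.04, so the inverse relation was one of group means and was not seen between follicles of a group. KRT8 had r = -0.13 with the brightest KRT19 set, and KRT18 had r = -0.05 with it. These correlations are descriptions, and all values of an array share its RNA and its normalization.

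The shared probe sets were singled out after their values were seen. The set shared by KRT8 and 8 pseudogene entries had 6.12, 5.66, 5.67, 5.92, 6.12 and 5.74 at 0 h and 6.55, 6.35, 7.13 and 6.81 at 12 h. At 24 h it had 5.51, 5.54, 5.55 and 5.03, in unruptured follicles 5.02, 5.23, 5.24 and 5.98, and in ruptured follicles 7.20, 5.87, 6.05 and 7.04. The 24 h replicate that was lowest in KRT8 was lowest at 24 h here too. It was higher at 12 h than at 0 h by 0.84 ± 0.25 (adjusted p = 0.0437), lower at 24 h than at 12 h by a difference of -1.30 ± 0.28 (adjusted p = 0.00772) and higher in ruptured than in unruptured follicles by 1.17 ± 0.28 (adjusted p = 0.0109). The first of these calls was lost in 13 of the fits that left out 1 array. Its Pearson r with the KRT8 probe set was 0.84 over the 22 arrays and 0.68 on deviations from the group means.

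The set shared by KRT18 and other entries was highest after rupture. It had 7.09, 6.74, 6.76, 6.47, 7.10 and 6.49 at 0 h, 7.26, 6.85, 7.03 and 7.20 at 12 h and 6.95, 6.37, 6.43 and 6.47 at 24 h. Ruptured follicles had 8.06, 7.81, 7.92 and 7.76, against 6.62, 6.78, 7.08 and 7.00 in unruptured follicles. All 4 ruptured follicles lay above the other 18 follicles. Ruptured follicles exceeded unruptured ones by 1.02 ± 0.17 (adjusted p = 0.000916), 0 h follicles by 1.11 ± 0.16 (adjusted p = 8.05e-05) and 12 h follicles by 0.80 ± 0.17 (adjusted p = 0.0222), where the call was lost in 4 fits without 1 array. At rupture the brighter KRT18 set went the other way, by -0.75. At 24 h against 12 h the shared set differed by -0.53 ± 0.17 (limma adjusted p = 0.0701, not called), where the brighter KRT18 set differed by 1.00. Over the 22 arrays the shared set had r = -0.50 with the brighter KRT18 set, 0.68 with KRT8 and 0.23 with the dimmer KRT18 set. On deviations from the group means these values were 0.14, 0.43 and 0.59. Which transcripts each KRT18 set measures was not tested.

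**Figure D4:**
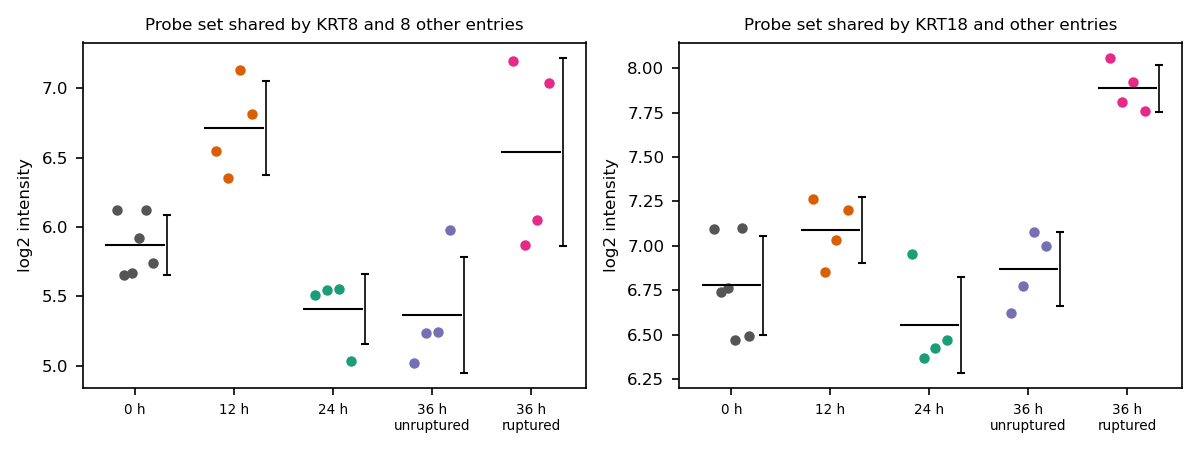
Log2 intensity in every follicle of the probe set shared by KRT8 and 8 other entries (left) and of the one shared by KRT18 and other entries (right), by group, with group means as lines and ± 1 SD as bars (n = 6 at 0 h, n = 4 otherwise). On the right the 4 ruptured follicles, 7.76 to 8.06, lie above all others.

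Among the other keratins, 32 of the 52 listed genes were measured under a single symbol. None of the 32 was called at 12 h against 0 h, at 24 h against 12 h or at unruptured 36 h against 24 h. In ruptured against unruptured follicles 2 of the 32 rose and 0 fell, where 4.83% of all probe sets were called higher and 4.99% lower, so the count is near the background. There the list's median change was 0.30, beside -0.03 over all probe sets. The list's mean level was low, 3.70 in ruptured and 3.36 in unruptured follicles, below the median of all probe sets (4.63). Changes at this level are uncertain in size, and the list was not set against dim probe sets alone. KRT16, a type I keratin of stressed and wounded epidermis, averaged 6.25 ± 0.90 in ruptured and 4.68 ± 0.60 in unruptured follicles (SD), a difference of 1.57 ± 0.37 (adjusted p = 0.0111), by 1 of its 4 probe sets. KRT7, a type II keratin of simple epithelia, averaged 3.95 ± 1.49 in ruptured and 2.19 ± 0.62 in unruptured follicles, a difference of 1.76 ± 0.55 (adjusted p = 0.0487). That KRT7 call was lost in 17 of the 22 fits that left out 1 array, and its level is far below the median of all probe sets. Against 0 h, ruptured follicles had 3 of the 32 higher and 0 lower, beside 7.01% higher and 8.78% lower over all probe sets, again near the background. The 3 were all named after their values were seen, and were KRT7, KRT16 and KRT10, a keratin of differentiating epidermis, which averaged 9.88 ± 0.18 in ruptured and 8.89 ± 0.12 in 0 h follicles.

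Genes for proteins that anchor or accompany keratin filaments are counted beside the share of all probe sets called, 9.33% at 12 h against 0 h, 6.88% at 24 h against 12 h and 9.82% in ruptured against unruptured follicles. Of 20 genes of desmosomes and keratin linkers, 16 were measured, and JUP (plakoglobin), which joins desmosomal cadherins to the filament anchor, was the 1 called in successive comparisons, so that 1 of 16 was called in each of 3 comparisons, near those shares. By 1 of its 2 probe sets, JUP had the directions of the brighter KRT18 set: it was lower at 12 h than at 0 h (-0.47 ± 0.14, adjusted p = 0.0412), higher at 24 h than at 12 h (0.68 ± 0.15, adjusted p = 0.0112) and lower in ruptured than in unruptured follicles (-0.73 ± 0.15, adjusted p = 0.00491). The list's median changes there were -0.35, 0.17 and -0.22, beside 0.0023, -0.0023 and -0.029 over all probe sets. The JUP call at 12 h was lost in 8 of the fits that left out 1 array. Of 14 genes for proteins that bind keratin 8 or 18, 6 were measured. FAS, a death receptor whose surface level keratins 8 and 18 affect in mouse liver, was the 1 called in the successive comparisons and rose, by 0.71 ± 0.17 at 12 h against 0 h (adjusted p = 0.0104) and by 0.70 ± 0.18 in ruptured against unruptured follicles (adjusted p = 0.0192), where the call was lost in 4 fits without 1 array. Of the 15 other intermediate filament genes 9 were measured. At 12 h against 0 h NEFH, a neurofilament subunit (-1.18 ± 0.36), and LMNB1, a nuclear lamin (-0.72 ± 0.19), fell and LMNA, another lamin, named here after its value was seen, rose by 0.62 ± 0.14. The NEFH call was lost in 16 fits without 1 array and the LMNB1 call without 12 h replicate 3. GFAP, the filament protein of astrocytes, fell at 24 h against 12 h (-1.36 ± 0.25, adjusted p = 0.00247). No gene of these 3 lists was called at unruptured 36 h against 24 h, and vimentin (VIM) was called in none of the successive comparisons.

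Markers of the cells that a dissected follicle could hold give the setting of these changes. All values here are descriptions of lists chosen with earlier results known. Over all probe sets, 4.28% were called higher and 5.05% lower at 12 h against 0 h, 3.67% and 3.2% at 24 h against 12 h, and 4.83% and 4.99% in ruptured against unruptured follicles. Of the 20 epithelial genes other than keratins 13 were measured. At 12 h against 0 h, 0 rose and 3 fell, CDH1 (-3.19 ± 0.63), ST14 (-1.82 ± 0.24) and, named after its value was seen, SPINT2 (-0.57 ± 0.15). ST14 was called by 1 of its 5 probe sets, and the SPINT2 call was lost in 1 fit without 1 array. CDH1, the epithelial cadherin, rose again at 24 h against 12 h (2.58 ± 0.69, adjusted p = 0.0299), a call lost in 5 fits without 1 array, but its mean level never exceeded 3.11, far below the median of all probe sets. The granulosa list (10 of 12 measured) had 3 genes lower at 12 h against 0 h, namely INHBB, HSD17B1 and, named after its value was seen, SERPINE2, whose call was lost in 7 fits without 1 array. It had 2 lower at 24 h against 12 h (CYP19A1 and INHBA), and in ruptured against unruptured follicles 1 was higher (INHBA) and 1 lower (GATM). The luteal list (3 of 7 measured) had STAR higher at 12 h against 0 h. Its genes HSD3B2 and FDX1 were lower at 24 h against 12 h and higher in ruptured against unruptured follicles. This was the direction of KRT8 and opposite to the brighter KRT18 set. The FDX1 call at 24 h was lost in 3 fits without 1 array. The mean of the luteal list had r = 0.51 with KRT8 and -0.76 with the brighter KRT18 set over the 22 arrays, and -0.33 and -0.39 on deviations from the group means. Leukocyte markers (6 of 10 measured) had 4 higher at 12 h against 0 h. Theca markers (8 of 9) had 3 lower at 12 h against 0 h, 2 higher (HHIP and OGN, each lost in 6 fits without 1 array) and 1 lower at 24 h against 12 h, and 1 lower at rupture (NR2F2). Endothelial markers (9 of 10) had ROBO4 lower at 24 h against 12 h and TEK lower at rupture, calls that were lost in 11 and 14 fits without 1 array. The part of these cell types in the keratin results was not tested.

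KRT19 was set beside markers of the ovarian surface epithelium and mesothelium, the cell layers that cover the ovary and line the body cavity, because their mean had the highest r with it among the 7 marker lists. Of that list 11 of 13 genes were measured, and 1 was called in the successive comparisons, WT1, a transcription factor of these layers and of granulosa cells, which rose at 12 h against 0 h by 1.11 ± 0.24 (adjusted p = 0.00559). The mean log2 level of the 11 genes per follicle spanned 5.17 to 6.35 at 0 h, 5.38 to 5.97 at 12 h and 5.77 to 6.31 at 24 h. At 36 h it spanned 5.69 to 6.32 after rupture and 6.00 to 6.28 before it. Its Pearson r with the brightest KRT19 set was 0.66 (Spearman rho 0.53) over the 22 arrays and 0.64 on deviations from the group means. All r values given here include replicate 1 at 0 h, the lowest follicle in both, and none was computed without it. For KRT8 the r was -0.04 over the 22 arrays and 0.33 on deviations from the group means, and for KRT18 0.25 and -0.17. ITLN1, a secreted lectin of mesothelium, had r = 0.64 with KRT19, LHX9, a transcription factor of the gonadal surface, 0.59 and MSLN, mesothelin, 0.51, all 3 picked after their values were seen. The other 8 genes of the list had r between -0.0056 (PKHD1L1) and 0.40 (UPK1B), with GPM6A at 0.05 and LRRN4 at 0.18. A gene of the theca list, DCN (decorin, a proteoglycan of connective tissue), had r = 0.65 with KRT19 and 0.61 on deviations from the group means, as high as ITLN1.

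The follicle with the lowest KRT19 also had the lowest mean of these markers. Replicate 1 at 0 h had a mean of 5.17 over the 11 genes, and ITLN1 was 6.31 there, against 7.11 to 9.09 in the other 0 h follicles. The lowest ITLN1 of all, 6.25, was in 12 h replicate 1, where KRT19 was 8.36. At 12 h, the follicle with the highest KRT19, replicate 4 at 9.84, had the highest marker mean (5.97) and the highest ITLN1 (8.22) of its group. The lowest KRT19 at 12 h, 8.08 in replicate 3, stood beside an ITLN1 of 7.28, above 6.25 and 6.52 in replicates 1 and 2. The highest KRT19 of all, 10.39 in unruptured replicate 1, stood beside a marker mean of 6.15, within the range of that group. The epithelial list other than keratins had r = 0.49 with KRT19. No test was made of the part of surface cells in the KRT19 levels.

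**Figure D5:**
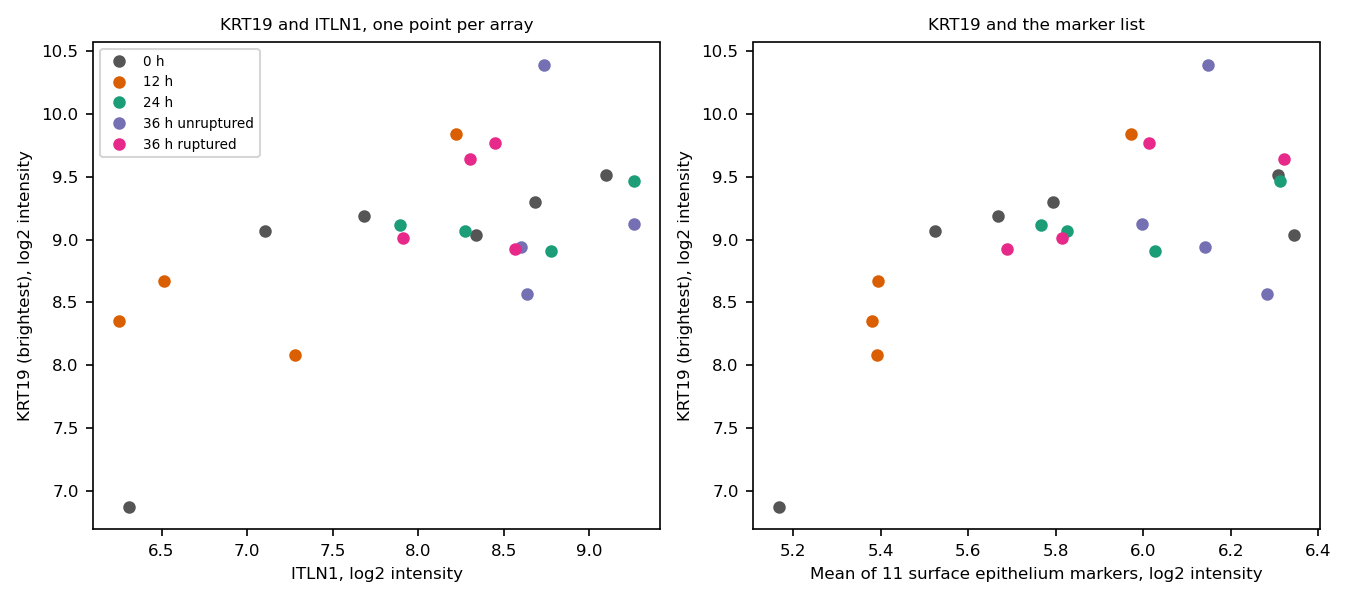
Log2 intensity of the brightest KRT19 probe set against that of ITLN1 (left) and against the mean of 11 measured surface epithelium and mesothelium markers (right), 1 point per follicle, coloured by group. Follicles low in the markers tend to be low in KRT19 (r = 0.64 and 0.66, n = 22), with replicate 1 at 0 h lowest in KRT19 and in the marker mean. The list was chosen for its high r with KRT19, and ITLN1 was picked after its r was seen. Both r values include replicate 1 at 0 h.

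The genes whose pattern was most like each keratin were looked up among 15246 probe sets with a single named gene and a mean above the median. For KRT8 these were LSM6 (r = 0.85), CLP1 (0.84), GTF3A (0.84), TIMM10 (0.83) and VPS54 (0.83). For the brighter KRT18 set they were ARID4A (r = 0.90), EBF1 (0.89), SLC40A1 (0.88), PARN (0.87) and ABTB1 (0.85). For KRT19 the 2 nearest were its own other probe sets (r = 0.98 and 0.97), followed by CFAP36 (0.81), COL9A3 (0.77) and CILP2 (0.75). The r values are over 22 arrays and are the highest of many, so they describe these arrays only.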

How the data were processed

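The authors deposited 1 intensity per probe set and array on a linear scale (0.0361 to 15137, array medians 26.1 to 26.7), in all for 52865 probe sets. These intensities come from RMA per the submitters' processing notes, a method that corrects background, normalizes between arrays and summarises probes, in a version the sources used here do not give. Log2 of the deposited intensity was taken, 99 AFFX controls were left out, and group means of the 22 arrays were fitted with limma 3.58.1 in R 4.3.3 (lmFit, eBayes; tested on simulated data). All groups share 1 estimate of the spread. No scan date was used here, so batches were not tested, and the number of arrays limits the precision. No 2 arrays were identical. Groups came from titles; a description of the unruptured arrays speaks of tissue after ovulation, while their titles and protocol say unruptured. Columns of no sample numbered 0. The 3 keratins and all lists were chosen with earlier results of these data known. A gene is given by its brightest probe set. Genes named were the members, the 5 probe sets most correlated with each, and per list and successive comparison up to 2 called genes with the largest change. Alternatives were an offset of 16, centring, quantile normalization, array weights, trended robust eBayes, 2-group fits, a 3′ to 5′ covariate, a replicate block, adjustment over brighter probe sets, other probe sets of a gene and leaving out each array.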

Additional observations from a re-analysis of the deposited data

Results flagged for a closer look

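Of 40 sets of arrays (8 probe sets in 5 groups), 6 held a follicle far from the others of its group, a gap that chance gives in about 1 of 20 such sets. KRT8 was 2.41 in 24 h replicate 4, where the next lowest was 5.60. The probe set shared by KRT8 and 8 pseudogene entries was lowest in the same follicle, at 5.03, with the next at 5.51. KRT19 was lowest in 0 h replicate 1 by all 3 of its probe sets, at 6.87, 5.62 and 5.60, where the next lowest were 9.04, 8.21 and 7.54. These 3 sets measure 1 gene in the same RNA and count as 1 observation. The dimmer KRT18 probe set was 3.94 in ruptured replicate 8, with the next lowest at 4.69.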

How the results depend on the processing

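The direction of the called changes of KRT8 and the brighter KRT18 set held in all fits of these sets, and their calls did not. The mean of both KRT18 sets kept the direction too. The dimmer KRT18 set turned in ruptured against unruptured follicles with the replicate block (0.51) and without ruptured replicate 8 (0.0094). KRT8 at 24 h against 12 h was -2.38 with adjusted p = 0.203 in a fit of only the 2 groups and -2.06 with the 3′ to 5′ covariate. KRT18 was 1.00 at 24 h against 12 h and -0.75 in ruptured against unruptured follicles in fits of the 2 groups, neither called there. With the mean of both KRT18 sets it was 0.70 and -0.47, 0.0042 at ruptured 36 h against 0 h, and its F value was 2.64, no longer called (adjusted p = 0.192). With 16 added, KRT8 gained calls at 12 h against 0 h (1.11), ruptured against unruptured (1.34) and ruptured 36 h against 0 h (1.16), and KRT18 at 24 h against 0 h (0.61). KRT8 was also called at ruptured 36 h against 0 h in a fit of the 2 groups (1.35), and KRT18 at 24 h against 0 h with trended robust eBayes (0.62). Where 1 alternative turned a sign, the differences were not called in either setting: KRT19 at 12 h against 0 h was 0.0014 with the covariate, its dimmest probe set was 0.0083 after centring and 0.096 with the covariate, the set shared by KRT8 was 0.13 at ruptured 36 h against 12 h with the covariate, and KRT18 minus KRT19 shifted by 0.13 at 12 h against 0 h with the dimmer KRT18 set. The cause was not tested.

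Follicles with the same replicate number showed little shared deviation (correlations of -0.18 to 0.17), so no pairing by number was seen. The labels state none, and a shared animal or batch was not tested. With the replicate block, KRT8 was -2.38 at 24 h against 12 h (adjusted p = 0.0720) and -0.090 at ruptured 36 h against 12 h, with an F value of 3.71 that was not called (adjusted p = 0.174). KRT18 was -0.87 ± 0.41 (SE) in ruptured against unruptured follicles and no longer called (adjusted p = 0.462). That comparison shares no numbers, and ruptured replicates 7 and 8 share theirs with no other array. KRT18 was -0.069 at ruptured 36 h against 12 h, with an F value of 5.90 that was not called (adjusted p = 0.0727). KRT19 was 0.047 at 12 h against 0 h and -0.35 in ruptured against unruptured follicles. Its other probe sets were -0.20 and -0.13 in ruptured against unruptured follicles, and the dimmest was 0.14 at 12 h against 0 h. The dimmer KRT18 set was -0.12 at 12 h against 0 h and 0.51 in ruptured against unruptured follicles.

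With each array left out in turn, KRT8 lay between 1.05 and 1.58 at 12 h against 0 h, between -2.77 and -1.54 at 24 h against 12 h, between 1.30 and 1.81 in ruptured against unruptured follicles, between -0.37 and 0.046 at unruptured 36 h against 0 h, between 1.18 and 1.58 at ruptured 36 h against 0 h and between -0.23 and 0.30 at ruptured 36 h against 12 h. KRT18 lay between -0.86 and -0.67 in ruptured against unruptured follicles, between 0.53 and 0.77 at 24 h against 0 h and between -0.16 and 0.19 at ruptured 36 h against 12 h. KRT19 lay between -0.49 and 0.13 at 12 h against 0 h, between -0.26 and 0.35 at unruptured 36 h against 24 h, between -0.15 and 0.46 in ruptured against unruptured follicles and between -0.084 and 0.44 at 24 h against 0 h. Its middle probe set lay between -0.15 and 0.54, -0.090 and 0.60, and -0.23 and 0.43 in the last 3 of these. Its dimmest set lay between -0.39 and 0.14 at 12 h against 0 h, -0.29 and 0.43 at unruptured 36 h against 24 h, -0.13 and 0.39 at 24 h against 0 h and -0.026 and 0.69 at unruptured 36 h against 0 h. The dimmer KRT18 set lay between -0.26 and 0.22 at 12 h against 0 h, -0.20 and 0.33 at unruptured 36 h against 24 h and -0.41 and 0.0094 in ruptured against unruptured follicles. The set shared by KRT8 lay between -0.24 and 0.075 at unruptured 36 h against 24 h and -0.39 and 0.052 at ruptured 36 h against 12 h. KRT8 minus KRT19 shifted by -0.081 to 1.40 at unruptured 36 h against 24 h. KRT18 minus KRT19 shifted by -0.60 to 0.30 at 12 h against 0 h and -0.60 to 0.12 at unruptured 36 h against 24 h.

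Ranges of the counts of called probe sets cover all alternatives except adjustment over brighter probe sets. Fits of 2 groups and fits without 1 array are included. The counts ran from 2418 to 5953 at 12 h against 0 h (4922 as reported) and from 189 to 4623 at 24 h against 12 h (3628). They ran from 0 to 10 at unruptured 36 h against 24 h (2) and from 34 to 6278 in ruptured against unruptured follicles (5181). Against 0 h they ran from 652 to 2558 at 24 h (1771), 827 to 3328 at unruptured 36 h (2492) and 1036 to 9209 at ruptured 36 h (8332). At ruptured 36 h against 12 h the range was 1 to 1661 (845), and in the F test 4285 to 12310 (10626). Of 94 calls of list genes over the 8 comparisons, 42 were lost in fits of 2 groups, 58 with the block and 29 in at least 1 fit without an array. No detection calls limit what can be said of KRT7, CDH1 and the dimmer KRT18 set, whose signals were low.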
